A study of Mus musculus with 6 samples.

Results

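The data describe 10 genes of arginine and polyamine metabolism in mouse bone-marrow-derived macrophages that received nanoparticles or the vehicle. They are Arg1, Arg2, Odc1, Srm, Sms, Sat1, Oaz1, Oat, Ass1 and Slc7a2, taken by gene symbol, and all 10 were found among the 55487 genes of the deposited table. The rule uses symbols alone and no measured value. All libraries came from wild-type female BALB/c mice of 6 to 12 weeks. Marrow cells grew for 8 days with 20% medium conditioned by L929 fibroblasts, and the cytokines IL-4 and IL-13 (10 ng/mL of each, 24 hours) brought both groups to the alternatively activated state labelled M2. The NP group (3 libraries, labelled PEMA in the sample titles) then received nanoparticles at 200 µg/mL for 24 hours and was rinsed. Poly(lactide-co-glycolide) is the particle material in the series title, and the control group (3 libraries) was labelled PBS. Poly(A) RNA was sequenced, and the comparison asked how expression differed between the particle-treated and the vehicle-treated cells.

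Arginine enters macrophages mainly through cationic amino acid transporters. Arginases split it into urea and ornithine, whereas nitric oxide synthase turns it into nitric oxide and citrulline, which can be built back into arginine. Arg1 is a classical gene of mouse macrophages alternatively activated by IL-4 and IL-13. Ornithine is passed to glutamate and proline by ornithine aminotransferase, or to putrescine by ornithine decarboxylase, the first step towards the polyamines spermidine and spermine. Antizymes send ornithine decarboxylase to the proteasome when polyamines are plentiful, antizyme inhibitors release it, and spermidine/spermine acetyltransferase starts polyamine export and breakdown.

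Of the 10 genes, Odc1 rose and Arg1, Arg2, Sat1, Sms and Oat fell in NP libraries, while Srm, Oaz1, Ass1 and Slc7a2 did not pass the test (limma voom, Benjamini-Hochberg adjusted p under 0.05 over all tested genes). The 6 called genes of 10 stood against a background of 41.2% of 14478 tested genes called, with 19.8% higher and 21.4% lower. In 5 of the 10 the 2 groups of libraries held no overlapping values (1 above and 4 below), against 53.3% of all tested genes (26.5% above and 26.8% below). The changes were of moderate size. The median log2 fold change of the 10 genes was -0.07 and their median absolute change was 0.13, against -0.0035 and 0.16 over all tested genes. Odc1 and Sat1 kept their direction and their call in each of the 15 alternative analyses. The other 4 called genes each lost the call in at least 3 of them, and Odc1 and Sat1 alone were called without NP 3 (2 of 10, against 25.8% of all genes in that fit). The same 2 were called with PBS 1 as the sole control (19.7% of all genes) and with no filter on low counts (16.9%).

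Because Odc1 and Sat1 moved in opposite directions and kept their calls, the sequences just upstream of both genes are shown, from RefSeq's GRCm38.p6 table, which held 6 of the 10 genes. Bases are given 5′ to 3′ on the gene's own strand and end before the first annotated start of the gene in RefSeq or GENCODE. Capitals mark GGGCGG or its reverse complement CCGCCC, the GC box bound by Sp1-family factors. The Odc1 stretch is chr12:17544623-17544793 on the plus strand, and the Sat1 stretch is chrX:155216450-155216699 on the minus strand.
Odc1: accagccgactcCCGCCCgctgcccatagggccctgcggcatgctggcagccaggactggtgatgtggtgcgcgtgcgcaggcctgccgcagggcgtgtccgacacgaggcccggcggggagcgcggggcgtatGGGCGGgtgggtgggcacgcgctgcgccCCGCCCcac
Sat1: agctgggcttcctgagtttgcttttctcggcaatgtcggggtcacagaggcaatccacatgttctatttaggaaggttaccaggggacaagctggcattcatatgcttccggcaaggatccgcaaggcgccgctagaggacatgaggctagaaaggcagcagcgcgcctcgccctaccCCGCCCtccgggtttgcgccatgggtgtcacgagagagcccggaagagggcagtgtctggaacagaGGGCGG

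The Odc1 stretch of 171 bases held 3 GC boxes and was 77.2% G and C. At that length, 19.6% of 32851 RefSeq windows held at least 1 GC box, and their median G and C share was 50.9%. These windows were the first 171 of the 250 bases before each RefSeq start and so stop short of it. The Odc1 stretch occupies the same place before its RefSeq start but ends right at its GENCODE start, so the comparison is not like for like. In Sat1, the 250 bases held 2 GC boxes and were 59.6% G and C, against 32.7% of windows with a GC box and a median of 52.4%. The E-box CACGTG, the motif TGACG and the TATA motif TATAAA, searched on both strands (CACGTG and TGACG can overlap), had no match in either stretch. They occurred in 3.41%, 9.94% and 8.09% of windows at the Odc1 length, and in 6.02%, 17.8% and 12.4% at the Sat1 length. In Odc1 the bases between the end of the stretch and the RefSeq start were not searched, so a motif there would be missed. These matches describe letters in the sequence and say nothing of binding.

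Total counts per library ran from 41974957 to 56265590 in PBS and from 60702163 to 69450411 in NP. The labels do not say whether the libraries of a group came from separate cultures or animals, and the p-values therefore reflect spread among these libraries, which may be technical. Between libraries, levels are given as depth-scaled counts (CPM) relative to the total over tested genes, after trimmed-mean (TMM) scaling. In bulk RNA, fewer cells of a type and less RNA per cell cannot be told apart. Macrophage markers were abundant, at a summed 11644.5 to 11944.5 CPM in PBS and 9424 to 10434 CPM in NP over 7 genes (5 lower, 1 higher). Lyz2 made up most of this sum, with a mean of 8330 CPM in PBS and 6738 CPM in NP. For this and the marker counts below, 19.8% of all tested genes were called higher and 21.4% lower. T cell, B cell, NK cell and erythroid lists each summed to at most 2.67 CPM in any library, and Ncr1, Gzma and Hbb-bs were at 0 counts throughout. Neutrophil, fibroblast and dendritic cell lists reached at most 3.99 CPM, and osteoclast markers summed to 50.4 to 63.9 CPM. Endothelial markers summed to 16.9 to 19.3 CPM, nearly all of it Kdr (means of 16.6 CPM in PBS and 18.2 CPM in NP). Of the 4 endothelial genes, 3 averaged under 1 CPM. Markers of dividing cells were lower in NP for 11 of 12 genes, with sums of 1640 to 1737 CPM in PBS and 826 to 1105 CPM in NP. Immediate early genes, which also respond to handling, were higher for 4 of 5 genes (773 to 869 CPM in PBS and 946 to 1009 CPM in NP). The part of either list in the changes below was not tested. Scaled to the library total without TMM, PBS 2 and PBS 3 carried 138 and 153 CPM of olfactory and vomeronasal receptor counts, against at most 12.5 CPM elsewhere. Values with PBS 1 as the sole control are therefore given where they alter a call.

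**Figure D1:**
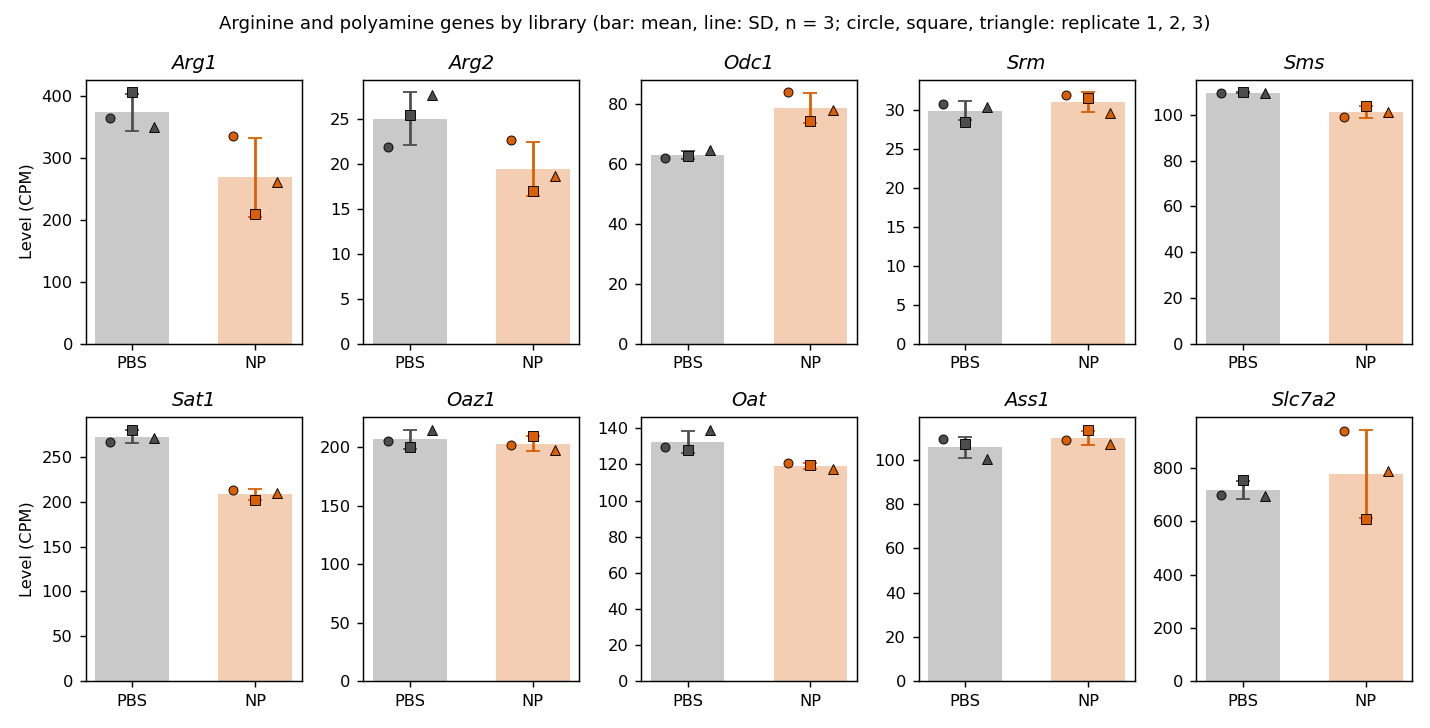
Level of each of the 10 genes in CPM (y axis, from 0) in the 3 PBS and 3 NP libraries; bars are means, lines are SD, and circles, squares and triangles are replicates 1, 2 and 3. Odc1 lies higher and Sat1 lower in every NP library, whereas Arg1 and Slc7a2 are spread widely within NP, with NP 2 lowest in both.

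Levels between genes were compared per length, as CPM per kilobase of merged exons (GENCODE M21). In PBS libraries Arg1 stood highest at 168 ± 13.1 CPM per kb (SD, n = 3, as for the other levels), followed by Sat1 at 98.4 ± 2.56. Oaz1 at 80.8 ± 3.02 and Slc7a2 at 78.6 ± 3.73 overlapped each other. Oat followed at 56.1 ± 2.57 and Ass1 at 43.8 ± 1.98, each apart from its neighbours. Srm (18.7 ± 0.772), Odc1 (18.5 ± 0.388), Sms (18.2 ± 0.030) and Arg2 (17.5 ± 2.05) lay within each other's ranges. The transcript for the polyamine-forming enzyme Odc1 stood at the level of both aminopropyl transferases, well under those of arginase 1 and of the polyamine acetyltransferase. In NP libraries the 4 lowest genes separated, with Odc1 at 23.1 ± 1.43, Srm at 19.4 ± 0.783, Sms at 16.8 ± 0.412 and Arg2 at 13.6 ± 2.07 CPM per kb and no overlap between neighbours. At the top, Arg1 (121 ± 28.7) and Slc7a2 (85.4 ± 18.1) overlapped in NP, as did Slc7a2 and Oaz1 (79.5 ± 2.42), while Sat1 (75.2 ± 2.12) came below Oaz1. Merged exons overstate the length of genes with alternative ends, such as Slc7a2 with 9135 bp, and so understate their level.

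**Figure D2:**
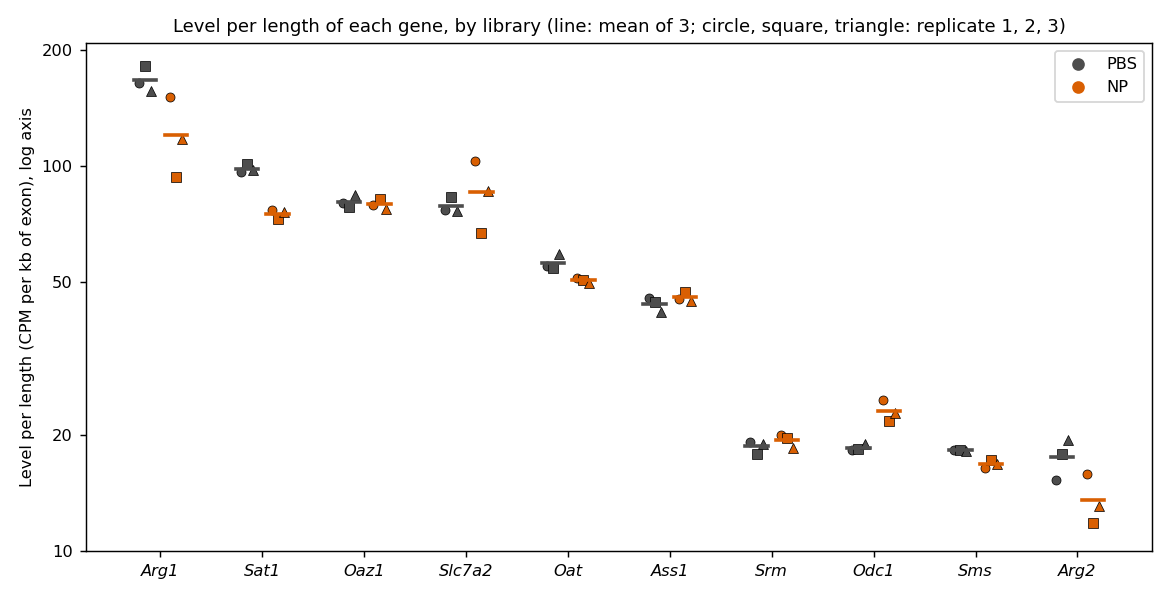
Level per length of each gene, in CPM per kb of exon on a log axis, ordered by the PBS mean; horizontal lines are means of 3 libraries and symbols are replicates 1, 2 and 3. Arg1 leads in both groups (168 and 121 CPM per kb), and Srm, Odc1, Sms and Arg2 cluster in PBS and spread apart in NP.

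Slc7a2, the cationic amino acid transporter CAT2, lies on chromosome 8 at 40862396 to 40922308 (GRCm38, GENCODE M21, as for all genes here, each protein-coding). Its level was 701, 757 and 696 CPM in PBS 1 to 3 and 941, 610.4 and 789 CPM in NP 1 to 3. NP 1 was the highest and NP 2 the lowest of all 6 libraries, so that the groups overlapped fully. The log2 fold change was 0.10 with a 95% interval from -0.18 to 0.38 (limma voom adjusted p = 0.566). Slc7a2 passed as higher without NP 2 (0.27, limma voom adjusted p = 0.0236) and turned to -0.04 without NP 1 (limma voom adjusted p = 0.809). The coefficient of variation was 21.2% in NP and 4.75% in PBS. The table counts CAT2 isoforms together, and 6.95% of its exonic bases are shared with Gm26584 on the opposite strand, which is not analysed here.

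Among the other genes of arginine uptake and mitochondrial ornithine transport, 2 of 8 tested rose and 1 fell (19.8% and 21.4% of all genes). Slc7a1, the constitutive transporter CAT1, was at 133.6, 133.4 and 137 CPM in PBS and 134.1, 134.9 and 134.1 CPM in NP, and its log2 fold change of -0.0021 had a standard error of 0.028 (limma voom adjusted p = 0.960). Slc3a2, the heavy chain that several amino acid exchangers share, rose by a log2 value of 0.49, from 495 ± 16.1 CPM to between 651 and 736 CPM. Slc7a6, a light chain that exchanges arginine for neutral amino acids, rose by 0.15, although not with PBS 1 as the sole control (limma voom adjusted p = 0.181). Its paralog Slc7a7 fell, with a log2 fold change of -0.42. Slc38a9, the lysosomal arginine sensor, lay above PBS in every NP library but did not pass (0.10, limma voom adjusted p = 0.0765), except with sample quality weights (0.11, limma voom adjusted p = 0.0276).

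Ass1, argininosuccinate synthase, takes citrulline back towards arginine and lies on chromosome 2 at 31470207 to 31520672. It was measured at 109.7, 107 and 100.5 CPM in PBS and 109.1, 114 and 107 CPM in NP, with overlapping groups. Its log2 fold change of 0.06 had a 95% interval from -0.03 to 0.15 (limma voom adjusted p = 0.285). Asl, which completes that step, had 0.12 (limma voom adjusted p = 0.0383), a small rise that was not called without PBS 1, PBS 2, NP 1 or NP 3 (limma voom adjusted p = 0.0616 to 0.135), nor with PBS 1 as the sole control (limma voom adjusted p = 0.199) or with scaling by library totals (0.09, limma voom adjusted p = 0.0886). Nos2, the inducible nitric oxide synthase, was barely detected, with 5, 8 and 8 counts in PBS and 7, 7 and 1 counts in NP, and was not tested. The list for nitric oxide synthesis and arginine recycling had 2 genes higher and 2 lower of 7 tested, against 19.8% and 21.4% of all genes. Ddah2, which clears methylarginine inhibitors of nitric oxide synthase, fell from at least 3.68 CPM in every PBS library to at most 2.73 CPM in NP (log2 fold change -0.69). In tetrahydrobiopterin synthesis, Pts fell (-0.42), while Gch1, the first enzyme, was higher (0.16, limma voom adjusted p = 0.0274) but not without PBS 1, PBS 2, NP 1 or NP 3 (limma voom adjusted p = 0.0819, 0.107, 0.0931 and 0.103) or with scaling by library totals (0.13, limma voom adjusted p = 0.0584).

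Arg1, cytosolic arginase 1, lies on chromosome 10 at 24915221 to 24927484. Its level was 365, 406 and 349.6 CPM in PBS 1 to 3 and 336, 209 and 261 CPM in NP 1 to 3. All NP values were below all PBS values, but NP 1 stood close to PBS 3, and NP 2 was lowest. The log2 fold change was -0.50 (SE 0.14, 95% interval -0.81 to -0.19), a difference of -29.3% (limma voom adjusted p = 0.0172). Without NP 2 the value was -0.32, and without NP 1 it was -0.66. The call was missed without PBS 2, NP 2 or NP 3 (limma voom adjusted p = 0.0673, 0.0506 and 0.108) and with PBS 1 as the sole control (limma voom adjusted p = 0.178). Of 9927 other tested genes with a mean of at least 5 CPM, those whose centred log2 CPM lay nearest to that of Arg1 over the 6 libraries were Cdh1, Edn1 and Ak1, with root mean square distances of 0.11, 0.12 and 0.13.

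Arg2, the mitochondrial arginase, lies on chromosome 12 at 79130777 to 79156301. It was found at 21.9, 25.5 and 27.7 CPM in PBS and 22.7, 16.9 and 18.6 CPM in NP. NP 1 lay above PBS 1, so the groups overlapped. Its log2 fold change was -0.36 (SE 0.11, limma voom adjusted p = 0.0306) and was not called without PBS 2, PBS 3, NP 2 or NP 3 (limma voom adjusted p = 0.0818, 0.116, 0.135 and 0.162). With PBS 1 as the sole control the value was -0.18 (limma voom adjusted p = 0.437). Of its exonic bases, 20.0% (285 bp) lie opposite exons of Vti1b, a vesicle SNARE gene on the other strand that rose from 123 ± 2.98 to 144 ± 4.48 CPM, and the strand setting of the counting is not given. Both arginases had NP 2 as their lowest library. The ratio of Arg1 to Arg2 counts was 16.7, 15.9 and 12.6 in PBS and 14.8, 12.3 and 14.0 in NP, a log2 difference of -0.13 (exact permutation test, two-sided p = 0.4).

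Arginine is also a source of creatine, and among the called genes of the wider pathway Gatm and Slc6a8 of this branch changed most after Azin2. All 4 tested genes of the urea cycle, agmatine and creatine list were called, 2 up and 2 down, against 41.2% of all tested genes. Gatm, which makes the creatine precursor guanidinoacetate from arginine, was at 386, 399 and 338 CPM in PBS and 225, 214 and 225 CPM in NP (log2 fold change -0.76, SE 0.06). Gamt, the next enzyme, fell by 0.46 on the log2 scale. In the opposite direction, Slc6a8, the creatine importer, went from 239.5, 253 and 263 CPM to 462, 384 and 426 CPM (0.75, SE 0.06), and Ckb, brain-type creatine kinase, rose (0.53). Thus Gatm and Gamt were lower and the importer Slc6a8 and the kinase Ckb higher. Each of these lacked overlap between the groups, as did 53.3% of all tested genes. Ckb was the sole creatine kinase on the list. The mitochondrial urea cycle genes Cps1 and Otc had 0 and 1 counts over all 6 libraries, and Agmat had 0.

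Oat, ornithine aminotransferase, on chromosome 7 at 132557478 to 132576398, was at 129.8, 128 and 139 CPM in PBS and 121, 119.6 and 117 CPM in NP. The groups did not overlap, and the decrease was small, with a log2 fold change of -0.15 (SE 0.04) or -9.88% (limma voom adjusted p = 0.0106). It was not called without NP 3 (limma voom adjusted p = 0.0815) or with PBS 1 as the sole control (limma voom adjusted p = 0.0921). In the list for proline and glutamate from ornithine, 5 of 11 tested genes fell and 1 rose, against 21.4% and 19.8% of all genes. Glul, glutamine synthetase, fell by 0.30 on the log2 scale. Aldh18a1, which starts proline synthesis from glutamate, fell by 0.18 on that scale. Leaving out any library but NP 2 ended this call (limma voom adjusted p = 0.0606 to 0.095), as did PBS 1 as the sole control (limma voom adjusted p = 0.207). Pycr1 was listed at 0.60 to 1.13 CPM and did not pass (limma voom adjusted p = 0.372). The gene that rose was P4hb (0.29), the protein disulfide isomerase that is also a subunit of collagen prolyl hydroxylase.

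Odc1, ornithine decarboxylase, lies on chromosome 12 at 17544794 to 17551505. Its level was 62.1, 62.6 and 64.6 CPM in PBS 1 to 3 and 83.9, 74.3 and 77.8 CPM in NP 1 to 3. The PBS libraries lay within a narrow band, and each NP library was above it. The log2 fold change was 0.32 (SE 0.05, 95% interval 0.21 to 0.42), an increase of 24.6% (limma voom adjusted p = 6.23e-04). Over the 15 alternatives it ran from 0.28 to 0.37, with limma voom or limma-trend adjusted p of at most 0.0226. Odc1 was the single gene of the 10 called as higher.

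The antizyme system around this enzyme moved in part. Oaz1, antizyme 1, on chromosome 10 at 80826656 to 80829290, was at 205, 200.0 and 215 CPM in PBS and 202, 209.9 and 198 CPM in NP (log2 fold change -0.02, 95% interval -0.11 to 0.06, limma voom adjusted p = 0.634). The groups overlapped. Its pseudogene Oaz1-ps held 2.85% to 3.23% as many counts, so a small share of reads may have been divided between them. Of 5 other tested genes of polyamine synthesis and antizyme control, 1 rose and 2 fell, against 19.8% and 21.4% of all tested genes. Azin1, antizyme inhibitor 1, which binds antizyme in place of ornithine decarboxylase, was at 327, 324 and 325 CPM in PBS and 415, 361 and 384 CPM in NP (0.24, SE 0.05, limma voom adjusted p = 0.00257). With PBS 1 as the sole control it was 0.23 and not called (limma voom adjusted p = 0.0747). Azin2, antizyme inhibitor 2, fell by 0.85 on the log2 scale, from 12.9, 13.7 and 13.9 CPM to 7.91, 7.03 and 7.44 CPM. Oaz2, antizyme 2, fell by 0.22. The ratio of Odc1 to Oaz1 counts was 0.303, 0.313 and 0.3001 in PBS and 0.415, 0.354 and 0.394 in NP, and the ratio of Odc1 to Azin1 was 0.190, 0.193 and 0.199 against 0.202, 0.206 and 0.203. Both ratios were higher in every NP library, the first by a log2 value of 0.34 and the second by 0.07 (exact permutation test, two-sided p = 0.1 each).

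Srm, spermidine synthase, on chromosome 4 at 148591503 to 148594993, was at 30.8, 28.5 and 30.4 CPM in PBS and 31.9, 31.5 and 29.6 CPM in NP. These ranges overlapped, and the log2 fold change of 0.05 had a 95% interval from -0.06 to 0.16 (limma voom adjusted p = 0.427). Sms, spermine synthase, on chromosome X at 157443855 to 157492287, was even in PBS, at 109.7, 109.8 and 109.4 CPM in PBS against 98.8, 103.8 and 101 CPM in NP. All NP values were lower, by a log2 fold change of -0.12 (SE 0.03, limma voom adjusted p = 0.0138), or -7.71%. This small difference was not called without PBS 1, NP 1 or NP 3 (limma voom adjusted p = 0.0657, 0.0521 and 0.0700) or with PBS 1 as the sole control (limma voom adjusted p = 0.140). The pseudogene Sms-ps held 5.64% to 7.19% as many counts as Sms, so the level of Sms is uncertain at that scale. Sms-ps itself had a log2 fold change of -0.18 and was not called (limma voom adjusted p = 0.165). The part of divided reads in the change of Sms was not tested. The ratio of Srm to Sms counts was 0.281, 0.259 and 0.278 in PBS and 0.323, 0.304 and 0.293 in NP, higher in each NP library (log2 difference 0.17, exact permutation test, two-sided p = 0.1).

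Both aminopropyl transferases need decarboxylated S-adenosylmethionine. Amd1, the decarboxylase that makes it, was at 66.5, 70.7 and 62.7 CPM in PBS and 73.1, 70.1 and 66.1 CPM in NP and did not pass (0.07, limma voom adjusted p = 0.322). Reads may be divided between Amd1 and the near-identical Amd2, which held 7.45% to 8.17% as many counts. In the list for methionine supply and salvage 1 of 9 genes rose and 3 fell, against 19.8% and 21.4% of all genes. Adi1, an enzyme of methionine salvage, rose (0.27), and Ahcy, which removes S-adenosylhomocysteine, fell (-0.27), though not with PBS 1 as the sole control (limma voom adjusted p = 0.0843). Mat2a, which makes S-adenosylmethionine, and Mtr, methionine synthase, both had -0.14. Neither was called without PBS 1 or NP 1, nor Mat2a without NP 3, nor Mtr without PBS 2 (limma voom adjusted p = 0.0506 to 0.0902). With PBS 1 as the sole control they had limma voom adjusted p = 0.0512 and 0.0824. In the hypusine pathway spermidine modifies the translation factor eIF5A. This pathway had 2 of 4 genes higher and 0 lower, against 19.8% and 21.4% of all tested genes. Dhps and Dohh, the enzymes of its first and second steps, rose by 0.34 and 0.17 (Dohh not with PBS 1 as the sole control, limma voom adjusted p = 0.0672). Eif5a itself was at 616 to 629 CPM in PBS and 634 to 648 CPM in NP and did not pass (0.05, limma voom adjusted p = 0.229).

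Sat1, spermidine/spermine N1-acetyltransferase 1, lies on chromosome X at 155213132 to 155216449. Its level was 267, 281 and 271 CPM in PBS 1 to 3 and 213, 202 and 211 CPM in NP 1 to 3. Each group varied by under 3% (coefficients of variation of 2.61% and 2.82%), and the groups lay well apart. The log2 fold change was -0.39 (SE 0.03, 95% interval -0.47 to -0.31), or -23.6% (limma voom adjusted p = 4.36e-05), and ran from -0.42 to -0.35 over the 15 alternatives. The ratio of Odc1 to Sat1 counts was 0.232, 0.223 and 0.238 in PBS and 0.394, 0.368 and 0.370 in NP. This ratio does not depend on scaling between libraries and was higher in every NP library, with a log2 difference of 0.71 (exact permutation test, two-sided p = 0.1). Of 7 other tested genes of polyamine oxidation, acetylation and transport, 1 rose and 0 fell, against 19.8% and 21.4% of all genes. Smox, spermine oxidase, was at 28.4, 25.6 and 26.8 CPM in PBS and 26.3, 28.7 and 28.9 CPM in NP (0.05, limma voom adjusted p = 0.537). Neither Atp13a2, a lysosomal polyamine exporter, nor its relative Atp13a3 passed (0.08 and -0.03, limma voom adjusted p = 0.0597 and 0.496), though Atp13a2 passed without PBS 1, with upper-quartile factors and with the strict filter of 1 CPM (limma voom adjusted p = 0.0290, 0.0400 and 0.0426). Gpc1, glypican 1, a heparan sulfate proteoglycan linked to polyamine uptake, rose from 34.1 to 35.5 CPM in PBS libraries to 49.4 to 53.4 CPM in NP libraries (0.55).

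**Figure D3:**
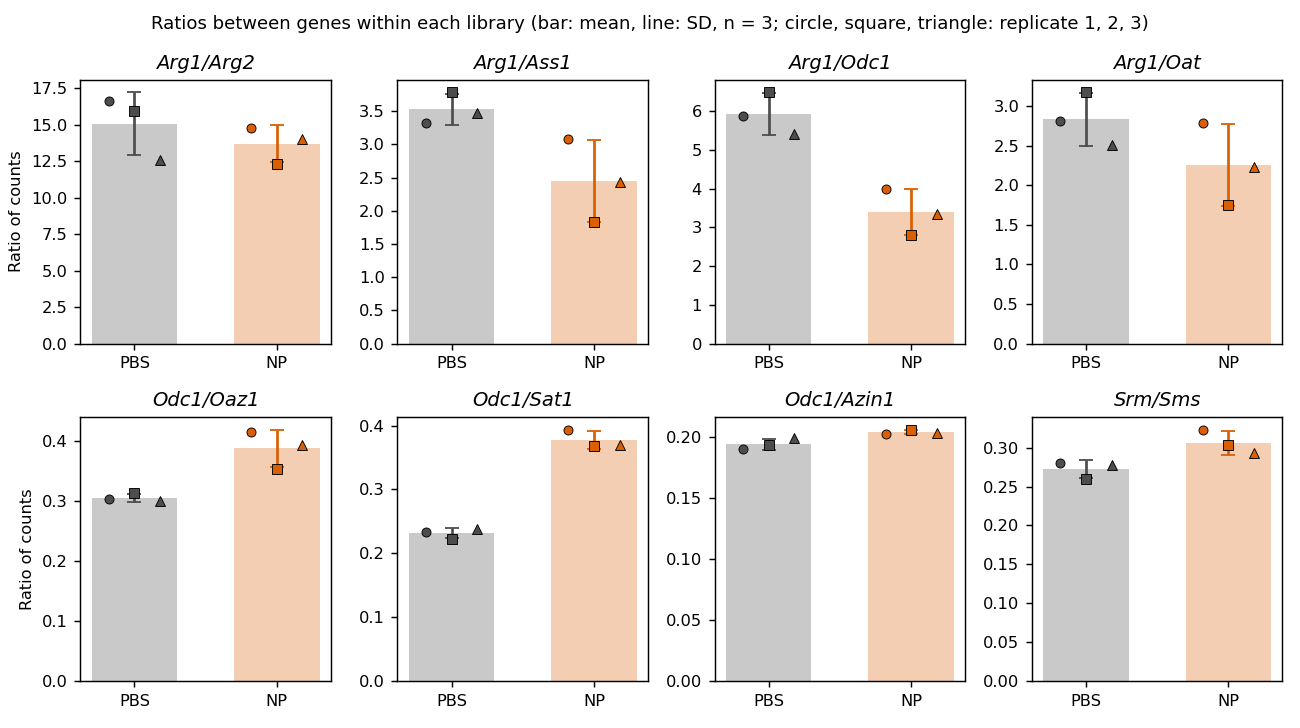
Ratio of counts between 2 genes within each library (y axis, from 0) for 8 ratios; bars are means, lines are SD (n = 3), and circles, squares and triangles are replicates 1, 2 and 3. Odc1/Sat1 lies between 0.223 and 0.238 in PBS and between 0.368 and 0.394 in NP, and Arg1/Odc1 is lower in every NP library.

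Ratios of Arg1 to genes of neighbouring steps differed in whether the groups overlapped. The ratio of Arg1 to Odc1 counts was 5.88, 6.49 and 5.41 in PBS and 4.00, 2.81 and 3.35 in NP, a log2 difference of -0.82. That of Arg1 to Ass1 was 3.33, 3.79 and 3.48 in PBS and 3.08, 1.83 and 2.43 in NP (-0.56). Both ratios were lower in every NP library (exact permutation test, two-sided p = 0.1 each). The ratio of Arg1 to Oat was 2.81, 3.17 and 2.51 against 2.78, 1.75 and 2.23, with overlap between the groups (-0.35, exact permutation test, two-sided p = 0.2). With 3 libraries against 3 the smallest p that this test can give is 0.1. It was reached by 6 of the 8 ratios (0.133 after Benjamini-Hochberg adjustment over the 8). A ratio reaches it when the groups do not overlap, as was so for 53.3% of all tested genes. Several ratios share Arg1 or Odc1, so they are not independent and add little to the changes of single genes given above.

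**Figure D4:**
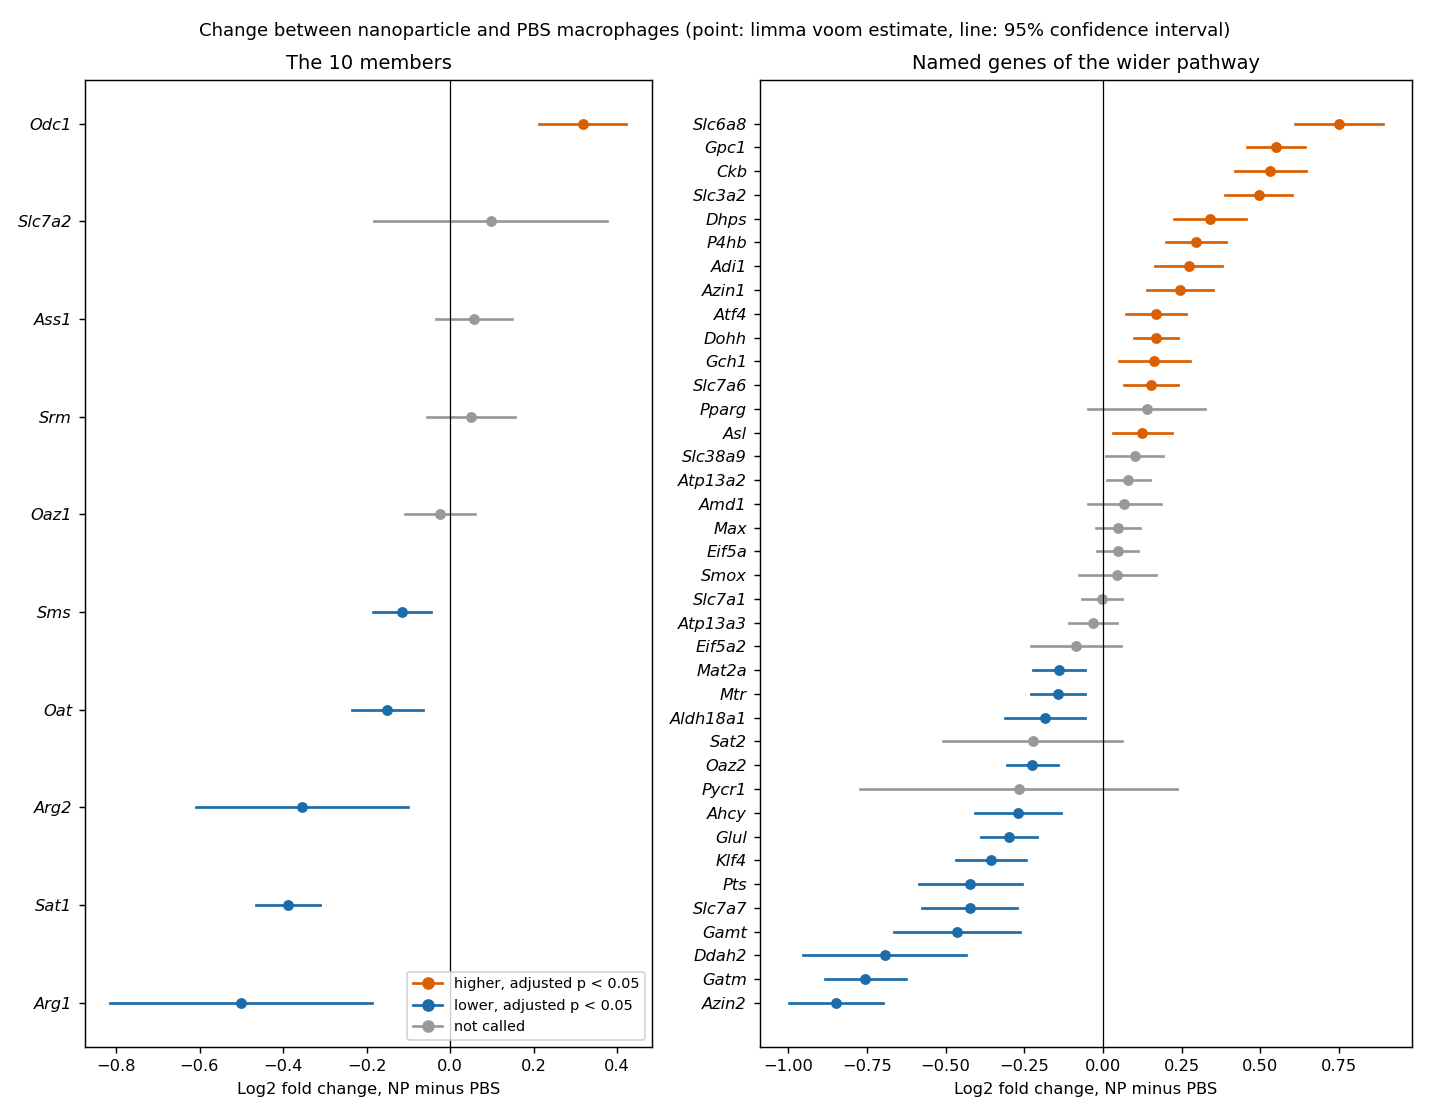
Log2 fold change, NP minus PBS, from limma voom (points) with 95% confidence intervals (lines) for the 10 genes (left) and for those tested genes of the wider pathway that are named for a fixed role or a small p in their list (right); colours mark genes called higher, called lower or not called. Odc1 is the one gene on the left called higher (0.32), and the values of the genes shown on the right run from -0.85 (Azin2) to 0.75 (Slc6a8).

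Over the whole of the wider pathway, 63 of 76 genes found in the table were tested, of which 13 were higher, 16 lower and 34 not called, against the 41.2% called over all genes. The median log2 fold change was -0.0020. Among 8 transcription factors known to act on Arg1 or Odc1, 1 rose and 1 fell, against 19.8% and 21.4% of all genes. Klf4, a factor of alternative activation, fell by 0.36 on the log2 scale. Atf4, the effector of the amino acid response, rose by 0.17, although not with PBS 1 as the sole control (limma voom adjusted p = 0.0801). Pparg, a lipid-sensing nuclear receptor, had 0.14 and did not pass (limma voom adjusted p = 0.212), except without PBS 3 (0.23, limma voom adjusted p = 0.0414). Max, a partner of Myc-family factors, had 0.05 (limma voom adjusted p = 0.248). Among 6 markers of alternative activation, Mrc1, Mgl2, Clec10a and Ccl24 fell, against 21.4% of all tested genes. Retnla and Chil3 were not called (limma voom adjusted p = 0.058 and 0.601). The summed level of the 6 markers was 1421 to 1742 CPM in PBS and 594 to 670.1 CPM in NP. Most of this sum was Mrc1, with a mean of 1165 CPM in PBS and 467 CPM in NP.

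Within NP, 5 of the 10 genes (Arg1, Arg2, Odc1, Sat1 and Slc7a2) were highest in NP 1 and lowest in NP 2, whereas Sms was lowest in NP 1 and highest in NP 2. For Arg1 the coefficient of variation was 23.8% in NP and 7.84% in PBS, and for Arg2 it was 15.2% and 11.7%. In Sms, Sat1, Oaz1, Oat, Ass1, Srm and Odc1 it was at most 6.20% in either group.

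**Figure D5:**
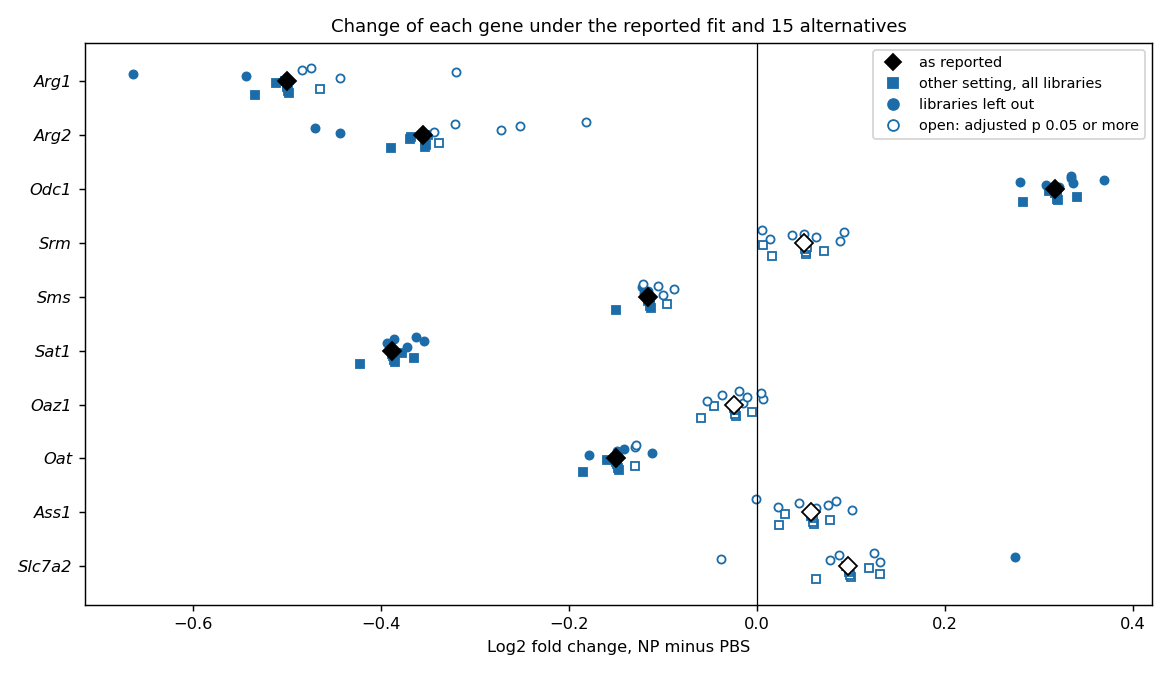
Log2 fold change of each gene, NP minus PBS, as reported (diamonds) and in 15 alternatives, either with all libraries under another setting (squares) or with libraries left out (circles); filled symbols have adjusted p under 0.05 and open symbols do not. Odc1 (0.28 to 0.37) and Sat1 (-0.42 to -0.35) are filled throughout, while Arg1, Arg2 and Slc7a2 spread most and each hold both filled and open symbols.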

How the data were processed

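Poly(A) RNA of 6 libraries was sequenced, 3 PBS and 3 NP, and 1 table holds the authors' expected counts per gene, deposited as whole numbers with no scaling for depth. The unit of the deposited columns is listed as other, because quoted names with spaces kept an automatic check from reading them, and it rests on the labels and the values. For the same reason edgeR and DESeq2, listed as alternatives, were not run, and limma voom was the main test. Per the submitters' processing notes, the tools were STAR 2.7.8a, RSEM 1.3.3, cutadapt 2.3, FastQC 0.11.8 and MultiQC 1.7, with GRCm38 as the build and no roles stated. Neither the release of the annotation nor the strand setting is given in the sources used here. RSEM can divide reads that match several genes.

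Of 55491 rows, 4 named no gene (0 counts) and were left out, and 55227 of 55487 genes matched GENCODE M21. The filter kept 14478 genes that reached 0.171 CPM of the library total in 3 or more libraries and summed to 15 counts or more. The voom model added 0.5 counts, used TMM factors between 0.979 and 1.02 and had group as its sole term, which left 4 residual degrees of freedom (limma 3.58.1, R 4.3.3). TMM and the filter were written out from their definitions and tested, with the fit, on simulated data. Log2 fold changes are NP minus PBS, and within-library ratios used counts plus 0.5. A depth of 3 counts equals 0.0432 to 0.0715 CPM. The chi-square per gene between libraries of a group was 4.92 to 19.6, above sampling noise in every pair.

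Genes and lists were chosen with earlier results of these data known. Named by rule were all 10 genes, 9 fixed pathway genes (Nos2, Amd1, Azin1, Smox, Slc7a1, Asl, Pycr1, Eif5a and Gatm), up to 4 tested genes per pathway list with the smallest p, and 3 genes nearest to Arg1. Cps1, Otc, Agmat, Vti1b, marker genes and pseudogenes were named outside it, after their values were seen. Pycr3 was listed and its symbol was not found in the table. Some genes that these rules would name are not reported here.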

Additional observations from a re-analysis of the deposited data

How the results depend on the processing

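Alternatives were 3 other scalings, 2 other low-count filters, limma-trend, sample quality weights, a replicate block, each library left out in turn and PBS 1 as the sole control, where its spread is assumed to be that of NP. Scaling by library totals, median-of-ratios or upper-quartile factors, the strict filter of 1 CPM in 3 libraries, limma-trend and quality weights left 6 of the 10 genes called, 1 higher and 5 lower. Over all genes 49.7% were called with the strict filter, 48.7% with quality weights and 41.0% to 41.4% in the other 4 of these fits. The scalings moved the median of all genes by at most 0.034 on the log2 scale. Without the low-count filter, 2 genes were called, 1 of them lower, and 10 pathway genes were lower. There Arg1, Arg2, Sms, Oat, Asl, Mat2a, Mtr and Aldh18a1 were not called (limma voom adjusted p = 0.0510 to 0.128). With PBS 1 as the sole control, 2972 of all genes passed, 2 of the 10 genes (1 lower) and 18 pathway genes, 8 higher and 10 lower. With 1 library left out, 2 (without NP 3) to 5 of the 10 genes were called, 1 to 2 higher (2 without NP 2) and 1 to 4 lower (1 without NP 3, 3 without PBS 2 or NP 2), and 10 (without NP 1) to 16 pathway genes were lower. All genes called then ran from 4077 (25.8% of those tested, without NP 3) to 6466 (40.3%, without PBS 1). The log2 fold change of Oaz1 ran from -0.053 to 0.0062, of Slc7a2 from -0.038 to 0.27 and of Slc7a1 from -0.013 to 0.011. Slc7a1 also turned to 8.21e-04 with median-of-ratios factors, to 0.018 without the filter and to 0.0023 with PBS 1 as the sole control, where Ass1 had -3.91e-04 and Smox -0.032. The causes were not tested. No sign of pairing by replicate number was seen: deviations of same-numbered libraries correlated at -0.014, -0.12 and -0.14. Those of differently numbered libraries correlated at -0.029 to 0.16. With 3 libraries per group these values cannot exclude pairing. With the replicate block, 5 of the 10 genes and 5022 of all genes (34.7%) were called, and Arg2 and Asl were not (limma voom adjusted p = 0.0544 and 0.0565). All 8 ratios kept their direction with no pseudocount, with a pseudocount of 10 and without any 1 library. At its low counts Nos2 could not be tested.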
